A study of Mus musculus with 2 samples.

Results

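The nuclei described here are 57 of the 4481 barcodes that passed both depth minimums in 1 multiome sample of mouse femur (1.27%, exact Clopper-Pearson 95% interval 0.965 to 1.65%). They are called periosteal-type after 5 genes that mark fibroblast-like cells on the outer face of bone. They were chosen by the RNA of 12 genes among barcodes of sufficient depth in both readouts. A barcode needed at least 500 UMIs (unique molecules) of non-mitochondrial genes and at least 1000 ATAC counts in peaks. Postn, Tnn, Aspn, Lrrc15 and Sfrp4 together had to make at least 0.2% of its non-mitochondrial UMIs, with at least 3 UMIs from at least 2 of these genes. The tendon and synovial genes Fmod, Thbs4, Cilp2, Fndc1, Igfbp6, Itgbl1 and Tnmd together had to stay under 0.2%. The levels of these 12 genes in the members are therefore a description and carry no test.

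The sample came from mice that carry Prrx1-cre and R26R(tdTomato/+), taken at postnatal day 21. Prrx1-cre is active in limb mesenchyme, and cells with a history of Cre carry red fluorescence through the reporter allele. Femurs were freed of the distal growth plate and the proximal end, the rest was cut up and digested, and cells positive for tdTomato were sorted. RNA and open chromatin were read from the same nuclei (10x Multiome, about 15000 nuclei loaded). The methods of the study state that periosteum was scraped off before marrow was taken, and the sort does not select a single cell type. The number of animals behind this sample is not given in the sources used here. There was 1 library of each kind, so no replicate error can be given. Nuclei are not replicates, and all intervals below cover counting error only.

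The periosteum is a fibrous and cellular sheath around bone. Its inner layer holds progenitors that form bone at the surface and take part in fracture repair, and its outer layer is rich in fibrillar collagen. Periostin (Postn) and tenascin N (Tnn) are secreted proteins that bind matrix and integrins. Asporin (Aspn) is a small leucine-rich proteoglycan that binds collagen, LRRC15 is a membrane protein of stromal cells, and Sfrp4 encodes a secreted WNT antagonist. None of the 5 is restricted to periosteum, since tendon, ligament and other connective tissues use several of them.

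The members held 182570 non-mitochondrial UMIs and 2684652 ATAC counts. A member had between 548 and 11891 UMIs (median 2519), a median of 822 genes and between 2818 and 101340 ATAC counts (median 46009). Mitochondrial UMIs made a median of 21.0% of all UMIs (range 0.661 to 45.4%), and 10 members were at or under 10%. They were compared with 42 tenocyte and synovial, 305 osteoblast and 795 reticular nuclei of the same library, each class set by its own marker genes. In that order, the classes had median UMIs of 2174, 5689 and 1463 and median mitochondrial shares of 16.7, 17.7 and 9.76%. The part of depth and mitochondrial share in the differences between classes was not tested. The whole series held 728634 barcodes, 31429475 non-mitochondrial UMIs and 191398837 ATAC counts. Barcodes with 100 to 400 UMIs and under 500 ATAC counts (62739 barcodes) gave the profile of free RNA.

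The sequences below come from peaks that were more open in members than in the comparison classes, although each had counts in only 6 to 14 of the 57 members. The first pair belongs to 2 of the 3 peaks of highest ratio, the next pair lies at matrix genes whose RNA was high in members, and the last pair lies directly upstream of the starts of Postn and Tnn. They were read from GRCm38 (mm10). Capitals mark matches to the AP-1 motif TGANTCA, the RUNX motif TGTGGT or the TEAD motif GGAATG on either strand.
Intergenic peak, chr8:101603899-101604198, plus strand: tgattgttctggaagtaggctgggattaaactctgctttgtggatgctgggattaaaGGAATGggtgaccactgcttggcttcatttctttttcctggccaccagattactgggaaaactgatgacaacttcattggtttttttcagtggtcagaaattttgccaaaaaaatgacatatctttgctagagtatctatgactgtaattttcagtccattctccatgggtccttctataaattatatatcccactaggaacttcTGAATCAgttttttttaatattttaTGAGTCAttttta
Intergenic peak, chr17:74122023-74122322, plus strand: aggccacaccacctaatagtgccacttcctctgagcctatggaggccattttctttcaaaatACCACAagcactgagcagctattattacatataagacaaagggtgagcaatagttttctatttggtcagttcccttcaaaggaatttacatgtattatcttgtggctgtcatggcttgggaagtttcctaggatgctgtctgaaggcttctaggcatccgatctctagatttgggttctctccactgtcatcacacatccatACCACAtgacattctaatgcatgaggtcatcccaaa
Intergenic peak downstream of the Lum start, chr10:97576046-97576345, plus strand: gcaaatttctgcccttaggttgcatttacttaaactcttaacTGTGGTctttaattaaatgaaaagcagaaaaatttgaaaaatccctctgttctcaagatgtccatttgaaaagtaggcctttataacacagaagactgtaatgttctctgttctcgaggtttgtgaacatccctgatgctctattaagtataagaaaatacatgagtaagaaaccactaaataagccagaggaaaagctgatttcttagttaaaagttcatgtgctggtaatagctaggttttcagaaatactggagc
Intronic peak of Col3a1, chr1:45320604-45320903, plus strand: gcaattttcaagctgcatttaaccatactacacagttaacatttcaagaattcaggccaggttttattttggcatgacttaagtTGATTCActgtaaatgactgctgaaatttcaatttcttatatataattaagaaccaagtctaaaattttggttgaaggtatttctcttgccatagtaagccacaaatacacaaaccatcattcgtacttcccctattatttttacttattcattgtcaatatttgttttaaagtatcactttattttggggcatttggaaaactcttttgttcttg
Postn, 200 bases upstream of the start, chr3:54360909-54361108, plus strand: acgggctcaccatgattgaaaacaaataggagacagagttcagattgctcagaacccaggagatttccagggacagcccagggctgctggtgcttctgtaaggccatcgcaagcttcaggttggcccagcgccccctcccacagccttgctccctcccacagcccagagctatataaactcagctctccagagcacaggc
Tnn, 200 bases upstream of the start, chr1:160153581-160153780, minus strand: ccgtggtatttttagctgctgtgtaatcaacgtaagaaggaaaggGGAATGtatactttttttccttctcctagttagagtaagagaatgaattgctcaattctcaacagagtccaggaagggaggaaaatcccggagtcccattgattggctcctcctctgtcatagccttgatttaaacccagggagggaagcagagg

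The windows at chromosomes 8, 17 and 10 lay in no protein-coding gene, and other genes were not checked. The chromosome 8 window held 2 AP-1 matches and 1 TEAD match, the chromosome 17 window held 2 RUNX matches, the window near Lum held 1 RUNX match and the window in Col3a1 held 1 AP-1 match. The Tnn window held 1 TEAD match, and the Postn window held none of the 3 motifs.

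Postn gave 546 UMIs in 55 of the 57 members, or 2991 CPM (UMIs per 1000000 non-mitochondrial UMIs, summed over the nuclei of a class; exact Poisson 95% interval 2745 to 3252). Tnn gave 205 UMIs in 47 members (1123 CPM, 974 to 1288). Aspn gave 113 UMIs in 33 members (619 CPM, 510 to 744), Sfrp4 39 UMIs in 14 members (214 CPM, 152 to 292) and Lrrc15 30 UMIs in 9 members (164 CPM, 111 to 235). Postn was at 1009 CPM in tenocyte and synovial nuclei, 237 CPM in mural nuclei (the smooth muscle and pericytes of vessels), 60.3 CPM in reticular and 43.7 CPM in osteoblast nuclei, beside 159 CPM in free RNA. Tnn was at 285, 9.24, 18.9 and 10.2 CPM in the same order, beside 21.8 CPM in free RNA. Sfrp4 differed from the other 4: reticular nuclei held it at 168 CPM (149 to 189), an interval that overlaps that of the members.

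**Figure D1:**
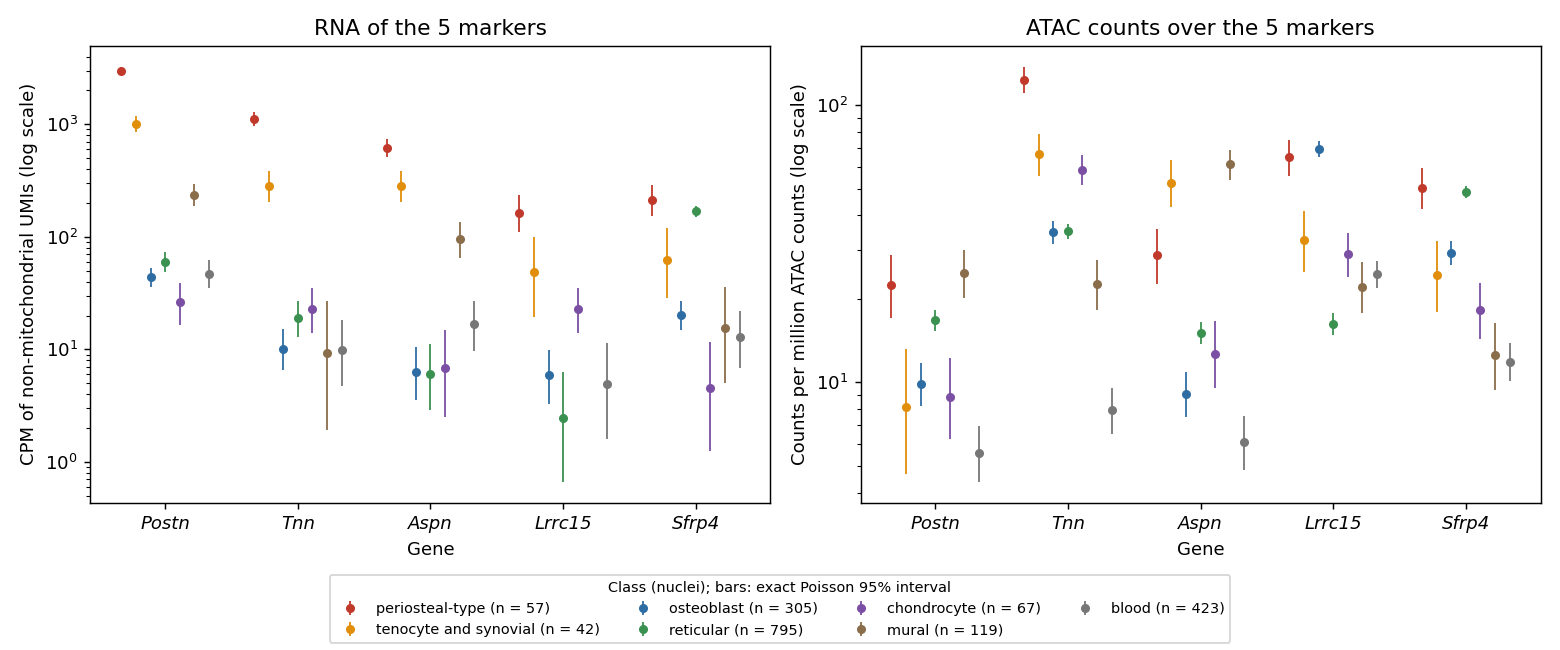
RNA (left, CPM of non-mitochondrial UMIs) and ATAC counts over the gene and 3 kb upstream (right, ATAC CPM) of the 5 marker genes in 7 classes of nuclei, on log scales, with exact Poisson 95% intervals. The RNA of Postn was 2991 CPM in members and 1009 CPM in tenocyte and synovial nuclei. The ATAC order differed by gene: Tnn was highest in members, Aspn was higher in mural and in tenocyte and synovial nuclei than in members, and the Sfrp4 intervals of members and reticular nuclei overlapped. Classes with a count of 0 are not drawn.

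When every nucleus was thinned to 500 UMIs, Postn was seen in 61.4% of members (47.6 to 74.0%), against 26.2% of tenocyte and synovial, 4.03% of reticular, 1.97% of osteoblast and 2.36% of blood nuclei, which should lack the gene. Unthinned, the shares were 96.5% of members and 7.80% of blood nuclei, with median depths of 2519 and 1494 UMIs.

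Members varied in how many markers they held. UMIs of 2 of the 5 markers were present in 24 members, of 3 in 23, of 4 in 9 and of all 5 in 1. Postn and Tnn were found together in 46 members and Postn and Aspn in 31, whereas Lrrc15 and Sfrp4 met in 1. Postn was the leading marker in 43 members, Tnn in 9, Sfrp4 in 3 and Aspn in 2. The marker share ran from 0.2003 to 1.67% (median 0.328%). The 3 members just inside the limit had 0.2003, 0.2034 and 0.2108%, and the 3 nuclei just outside had 0.1954, 0.1946 and 0.1933%. A single member of 11891 UMIs held 199 of the 933 marker UMIs, 133 of them Postn. In contrast, 5 members rested on 3 marker UMIs each. For the tendon genes, 22 members had no UMI, and the highest share was 0.186%.

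Each marker was also read in nuclei picked by the other 4, so that its own level was not used. The 15 nuclei picked without Postn held it at 4714 CPM (4196 to 5279), against 105 CPM in all other nuclei. Tnn was at 964 CPM (789 to 1166) in 31 nuclei against 34.5 CPM, Aspn at 609 CPM (492 to 745) in 48 nuclei against 17.6 CPM and Lrrc15 at 157 CPM (104 to 227) in 55 nuclei against 5.96 CPM. Sfrp4 was at 38.9 CPM (14.3 to 84.7) in 48 nuclei against 45.3 CPM (41.8 to 49.0). The nucleus of 11891 UMIs gave 133 of the 300 Postn UMIs and 15 of the 28 Lrrc15 UMIs, and Lrrc15 was seen in 7 of the 55 nuclei. Without it, Postn was at 3227 CPM (2756 to 3756), Tnn at 785 CPM (620 to 981), Aspn at 505 CPM (395 to 636) and Lrrc15 at 78.0 CPM (41.5 to 133). Thus Postn, Tnn, Aspn and Lrrc15 were each higher in nuclei that the others picked than elsewhere, and Sfrp4 was not. Lrrc15 rested on few nuclei. All nuclei picked in this way were members, and the markers were chosen with earlier results of these data known. These levels describe how the markers met in the same nuclei and are no test of the set.

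Open chromatin was a readout that the rule did not use. Over the 5 genes with 3 kb upstream, members had 290 ATAC CPM (counts per 1000000 ATAC counts in peaks, 270 to 311). Tenocyte and synovial nuclei had 184 (166 to 204), osteoblast nuclei 153 (146 to 160) and reticular nuclei 132 (128 to 136), and the log2 ratio of members to the 3 classes together was 1.05. The interval of the members did not overlap that of any of the 3. Within 1 kb of the starts alone the log2 ratio was 1.07. Across 21282 genes with at least 100 ATAC counts the median log2 ratio was 0.05, and 889 genes were at 1 or above.

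Gene by gene, the accessibility of Tnn was 124 ATAC CPM (111 to 138) in members and 66.6 ATAC CPM in tenocyte and synovial nuclei, which are the next in order of the 3. Only 0.766% of genes had a higher accessibility ratio than Tnn. Postn was at 22.4 ATAC CPM (17.1 to 28.8) against 8.13, 9.87 and 16.7 ATAC CPM in tenocyte and synovial, osteoblast and reticular nuclei, and its interval overlapped that of the reticular nuclei. At the peak over the Postn start, however, members had 9.31 ATAC CPM (6.03 to 13.8) and reticular nuclei 1.60 (1.19 to 2.12), while mural nuclei had 8.18. Lrrc15 was at 64.8 ATAC CPM in members and 69.6 ATAC CPM in osteoblast nuclei, where its RNA was at 5.94 CPM, so the whole gene window was as open there. At its most open start peak, members had 21.2 ATAC CPM (16.1 to 27.5) and osteoblast nuclei 10.6 (8.94 to 12.6). Summed within 1 kb of the start, the intervals overlapped, at 32.0 (25.6 to 39.6) and 24.1 ATAC CPM (21.5 to 26.9). Aspn was at 28.7 ATAC CPM in members and 52.4 ATAC CPM (42.7 to 63.5) in tenocyte and synovial nuclei. Sfrp4 was at 50.3 ATAC CPM (42.2 to 59.5) in members and 48.7 ATAC CPM (46.3 to 51.3) in reticular nuclei. The difference from the reticular nuclei in accessibility thus rested on Tnn, Lrrc15 and Aspn more than on Postn and Sfrp4.

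To see whether the nuclei grouped by chromatin, the 30 nearest barcodes of each member were found from ATAC counts alone. Members made 32.7% of the neighbours of members and 1.27% of all barcodes. The other classes, which differ in size, had as high or higher shares of their own kind. These were 32.8% for tenocyte and synovial, 35.6% for osteoblast, 37.7% for chondrocyte, 53.0% for mural, 54.4% for blood and 65.6% for reticular nuclei. In the same order, these classes made 0.937, 6.81, 1.495, 2.66, 9.44 and 17.7% of all barcodes. A further 5.38% of the neighbours of members were tenocyte and synovial, 3.63% mural, 3.33% reticular and 2.40% osteoblast nuclei. Another 51.9% belonged to no class, beside 59.65% of all barcodes. Against their shares of all barcodes, tenocyte and synovial and mural nuclei were thus more frequent among these neighbours. Reticular and osteoblast nuclei were less frequent there. Depth varies between nuclei and its part in this grouping was not tested. The members were not of one kind in this respect: 35 had at least 5 members among their 30 neighbours, 7 had 1 to 4 and 15 had none. Nuclei with no neighbour of their own class were 3 of 42 tenocyte and synovial, 14 of 305 osteoblast and 25 of 795 reticular nuclei. They were 0 of 67 chondrocyte, 14 of 119 mural and 25 of 423 blood nuclei.

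**Figure D2:**
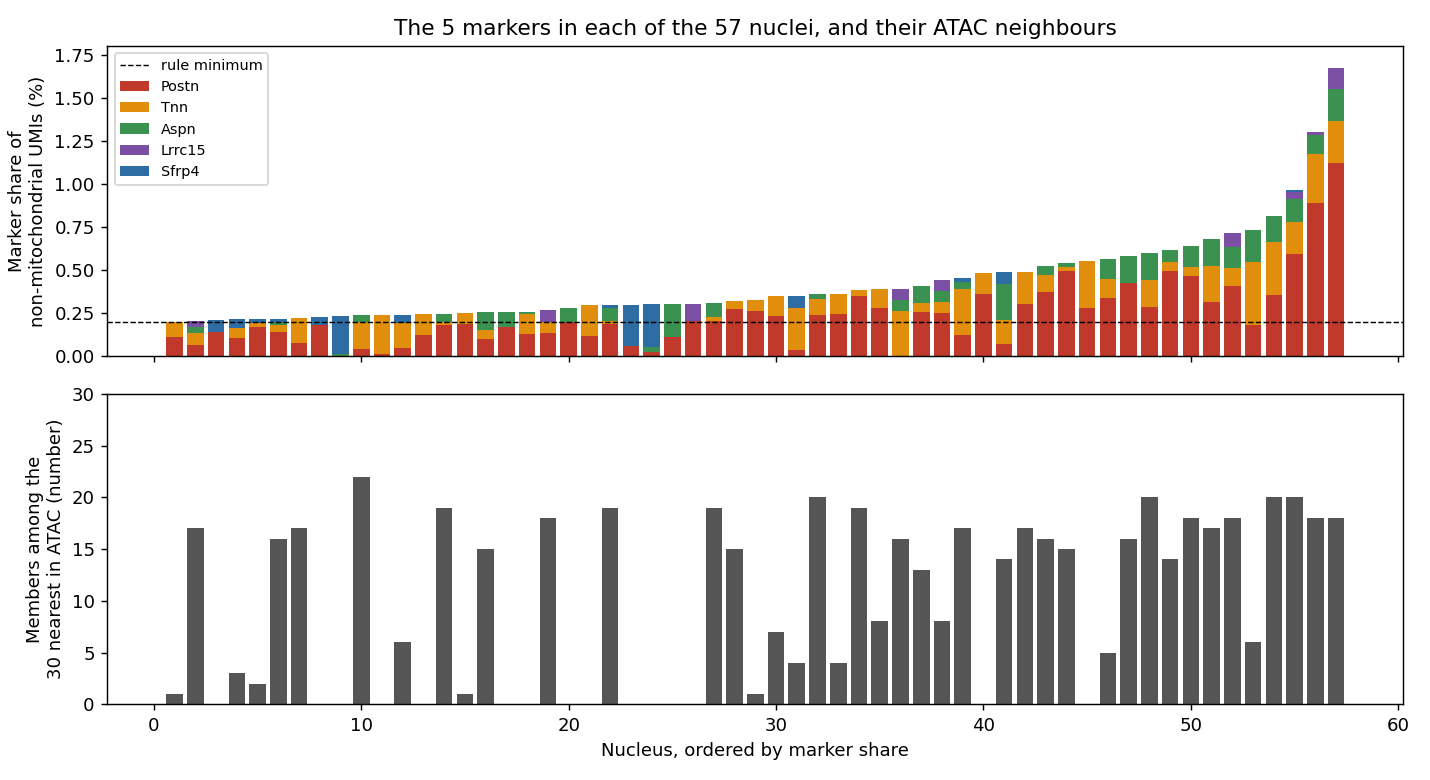
The 57 members ordered by marker share: the share of non-mitochondrial UMIs from each of the 5 markers in percent (top, stacked bars, dashed line at the 0.2% minimum) and the number of members among the 30 nearest barcodes in ATAC (bottom). The 15 nuclei without members among their neighbours had a median marker share of 0.279%, against 0.444% in the 35 with at least 5, and the 3 nuclei in which Sfrp4 leads are all among the 15.

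The RNA of these subsets differed beyond the counting intervals, also for genes outside the rule. The 35 members with at least 5 member neighbours held Postn at 4025 CPM (3669 to 4407) and Sfrp4 at 51.6 CPM (18.9 to 112). The 15 with none held Postn at 1030 CPM (762 to 1362) and Sfrp4 at 610 CPM (408 to 876), and all 3 members in which Sfrp4 led were among them. Pdzrn4, which encodes a ring finger protein, was at 4903 CPM (4508 to 5322) in the 35 and 84.1 CPM (22.9 to 215) in the 15. Pleiotrophin (Ptn), a secreted growth factor, was at 955 CPM (785 to 1150) and 105 CPM (34.1 to 245). The collagen Col3a1 was at 6494 CPM (6039 to 6974) and 1156 CPM (871 to 1505). Bglap, which encodes osteocalcin, went the other way, at 370 CPM (268 to 498) and 1009 CPM (744 to 1338), beside 993 CPM in free RNA. Fndc1 and Acta2 had no UMI in the 15, which allows up to 77.5 CPM by the Poisson interval. Median UMIs were 2596 and 2177, median ATAC counts 48982 and 34010, and median mitochondrial shares 23.0% and 16.0%. Their part in the split was not tested. These subsets were set after the data were seen.

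A set of 25 barcodes outside the members had at least 10 members among their neighbours. They failed the rule on RNA, with a median marker share of 0.118%, and 20 of them were in no class, 4 were tenocyte and synovial nuclei and 1 was mural. Even so, they held Postn at 1128 CPM (897 to 1400), Col3a1 at 4085 CPM (3634 to 4577), Col16a1 at 1252 CPM (1008 to 1537) and Pdzrn4 at 3191 CPM (2794 to 3629). In the 3984 other barcodes with no member neighbour the same genes were at 63.4, 159, 47.0 and 279 CPM. Their median mitochondrial share was 33.2%, above the 16.1% of those barcodes. The rule thus left out some nuclei that were close in chromatin and held the same matrix genes at a high level.

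**Figure D3:**
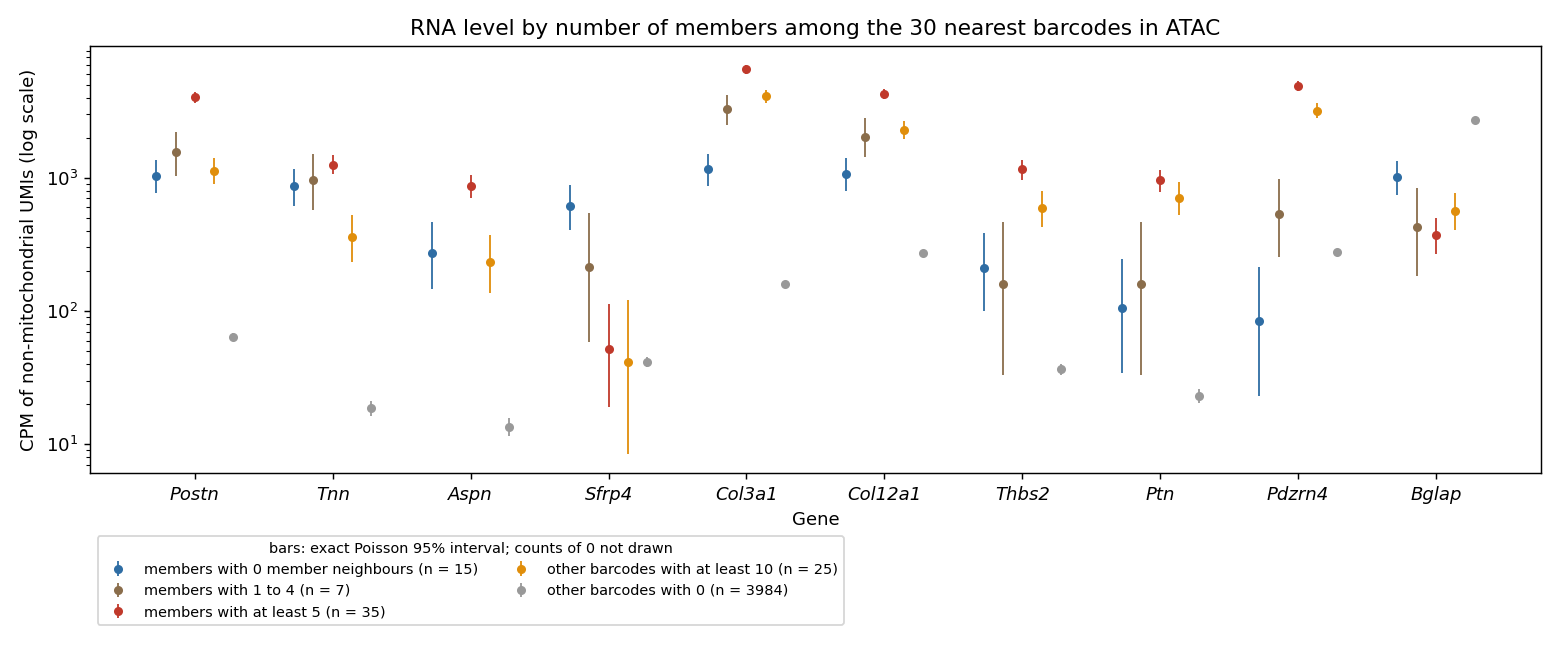
RNA level (CPM of non-mitochondrial UMIs, log scale, exact Poisson 95% intervals) of 10 genes in members with 0, 1 to 4 and at least 5 members among their 30 nearest barcodes in ATAC, and in other barcodes with at least 10 or with 0. Col3a1, Col12a1, Thbs2, Ptn and Pdzrn4 were far higher in members with at least 5 than in members with 0, and Sfrp4 and Bglap were lower. The 25 other barcodes followed the members with at least 5 for Col3a1 and Pdzrn4.

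Genes outside the rule were compared between the members and each class, and a gene was called at a 2-fold difference in CPM if both sides together held 20 UMIs or more. With 1 library, these calls state the size of a difference, and nothing is said of its repeat in other animals. Members held 182570 UMIs, against 2358671 in osteoblast and 1641239 in reticular nuclei. A gene near the minimum could thus be called on few or no UMIs in members. The calls did not use the counting intervals, so their number includes differences within counting error. Against tenocyte and synovial nuclei, 137 of 2147 genes were higher in members (6.38%) and 314 were lower (14.6%). That class was set by tendon genes that the rule kept out of the members, and 8 of its 42 nuclei passed the limit of the 5 markers. Against osteoblast nuclei, 1395 of 7849 genes were higher (17.8%) and 1064 lower (13.6%). Against reticular nuclei, 460 of 8210 genes were higher (5.6%) and 2270 lower (27.6%). Against the 3 classes summed, where osteoblast and reticular nuclei give most UMIs, 1037 of 10271 genes were higher (10.1%) and 2040 lower (19.9%). The median log2 ratio over all these genes was -0.08. Over the genes tested against each class it was -0.21 for tenocyte and synovial, 0.14 for osteoblast and -0.41 for reticular nuclei. Counts and medians of gene lists below are to be read against these backgrounds.

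Of 2110 genes tested against each class, 21 were at least 2-fold higher in members than in all 3. They included the fibril-associated collagen Col12a1, the matrix proteins and enzymes Thbs2, Mmp14 and Tnfaip6, the WNT ligand and receptor Wnt5b and Ror2, the ephrin and Eph receptor Efna5 and Ephb2, the adhesion molecule Ncam1, the scaffold protein Dlg2 and Pdzrn4. Another 12 genes were lower than in all 3, among them the elastic fibre gene Fbn2 and Daam2, a formin of the WNT pathway.

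The collagen genes that were high in members were for the most part high in tendon nuclei as well. Of 32 collagen genes tested against the 3 classes, 10 were higher and 6 lower, while against tenocyte and synovial nuclei 2 of 27 were higher and 5 lower. Col3a1, a fibrillar collagen of soft connective tissue, was at 4771 CPM (4459 to 5098) in 48 members. It was at 5526 CPM in tenocyte and synovial nuclei, and only at 75.04 CPM in osteoblast and 127 CPM in reticular nuclei. Col12a1 was at 3193 CPM (2939 to 3463) in 49 members against 1239, 93.3 and 469 CPM. Col16a1, another fibril-associated collagen, was at 833 CPM (706 to 976) against 557, 17.4 and 46.9 CPM. Col6a3, a chain of the beaded collagen VI, was at 772 CPM (650 to 911), below the 1148 CPM of tenocyte and synovial nuclei. Thus Col12a1 was higher than in all 3 classes, and Col3a1 and Col6a3 were as high or higher in tendon nuclei.

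The 4 collagens of lowest ratio were Col22a1, Col24a1, Col23a1 and Col11a2. Col24a1 was at 49.3 CPM (22.5 to 93.6) in members and 800 CPM in osteoblast nuclei, and Col22a1 had 3 UMIs in members (16.4 CPM, 3.39 to 48.0) and was at 469 CPM in osteoblast nuclei. Col11a2 was at 466 CPM (372 to 576) against 3311 CPM in osteoblast nuclei and 728 CPM in free RNA. Col23a1 had no UMI in members, where 3 counts would be 16.4 CPM. The collagen of bone, Col1a1, was at 29304 CPM (28524 to 30100) in members, 26825 CPM in tenocyte and synovial and 80704 CPM in osteoblast nuclei. Free RNA held it at 45217 CPM and blood nuclei at 12933 CPM, so the level in members was below that of free RNA.

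**Figure D4:**
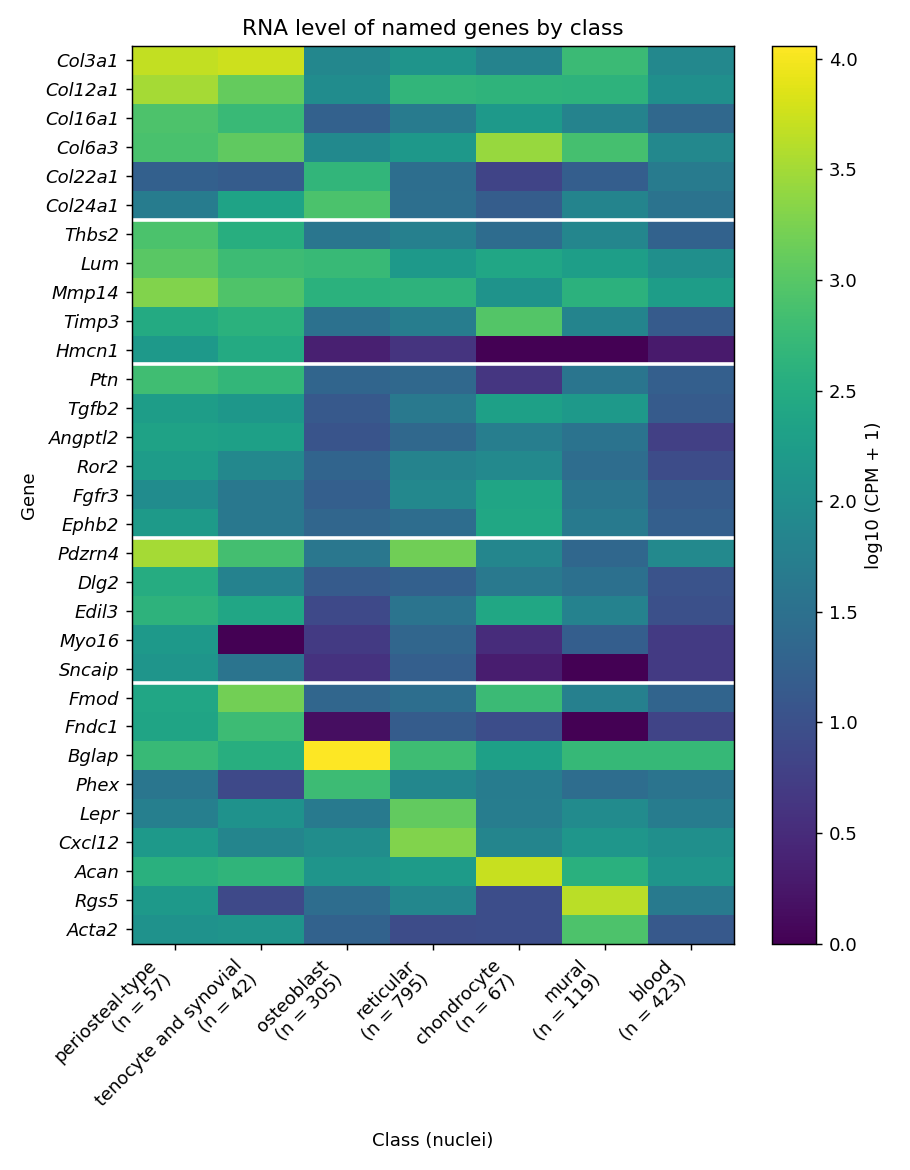
RNA level of named genes (rows, colour as log10 of CPM + 1) in 7 classes of nuclei (columns). Periosteal-type and tenocyte and synovial nuclei share the bright rows of Col3a1, Col12a1, Col16a1 and Ptn. Bglap is brightest in osteoblast nuclei, Lepr and Cxcl12 in reticular nuclei, Acan in chondrocyte nuclei and Rgs5 in mural nuclei. Bglap, Lepr, Cxcl12, Acan and Rgs5 each helped to set the class in which they are brightest.

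Among matricellular and elastic fibre genes, 6 of 27 were higher and 7 lower than in the 3 classes. Thbs2, a thrombospondin that limits vessel growth and shapes collagen fibrils, was at 805 CPM (680 to 946) in 35 members against 355, 37.7 and 58.5 CPM in tenocyte and synovial, osteoblast and reticular nuclei. Tenascin C (Tnc) was at 2257 CPM (2044 to 2485), above tenocyte and synovial (988 CPM) and osteoblast nuclei (262 CPM) and near reticular nuclei (2430 CPM). Hmcn1, which encodes hemicentin, was at 153 CPM (102 to 222) in members and 299 CPM in tenocyte and synovial nuclei, against 1.27 and 3.05 CPM in the other two classes. Fbn2, a fibrillin, was at 16.4 CPM from 3 UMIs (3.39 to 48.0) against 251, 187 and 121 CPM. Svep1, a large adhesion protein, was also at 16.4 CPM, and was at 341 CPM in reticular nuclei.

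Of 18 proteoglycan genes, 5 were higher and 2 lower than in the 3 classes, and none of 14 was higher than in tenocyte and synovial nuclei, where 8 were lower. Lumican (Lum), which regulates collagen fibrils, was at 1057 CPM (913 to 1217) in 40 members, against 599, 539 and 154 CPM, beside 496 CPM in free RNA. Decorin (Dcn) was at 449 CPM (357 to 558) against 2561 CPM in tenocyte and synovial nuclei. Prelp had 1 UMI in members (5.48 CPM, 0.139 to 30.5) and was at 529 CPM in tenocyte and synovial nuclei. The genes next to Aspn in the genome form a row of related proteoglycans on chromosome 13, and did not share its pattern. Ogn was at 49.3 CPM (22.5 to 93.6) against 223 CPM in tenocyte and synovial nuclei. Omd was at 76.7 CPM (41.9 to 129) against 55.7, 30.5 and 20.7 CPM, with 9 of its 14 UMIs in 1 member. Ecm2 was at 43.8 CPM (18.9 to 86.3) against 62.6, 1.27 and 8.53 CPM.

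Of 30 genes that process or cross-link collagen, 5 were higher and 5 lower. Mmp14, a membrane-bound collagenase, was at 1961 CPM (1763 to 2175) in 49 members against 884, 387 and 415 CPM. Mmp2, which MMP14 activates, was at 411 CPM (323 to 515) against 626, 260 and 56.1 CPM. The inhibitors Timp2 and Timp3 were at 663 CPM (121 UMIs) and 301 CPM (55 UMIs), below the 780 and 390 CPM of tenocyte and synovial nuclei and above osteoblast and reticular nuclei. P4ha3, a subunit of the prolyl hydroxylase that stabilises collagen, had 10 UMIs (54.8 CPM, 26.3 to 101) against 69.6, 0.848 and 3.66 CPM. Adamts14, an enzyme that trims procollagen, had 1 UMI in members and was at 79.7 CPM in osteoblast and 43.9 CPM in reticular nuclei.

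Among ligands and receptors the lists moved both ways. Of 28 growth factor genes, 6 were higher and 9 lower. Ptn was at 652 CPM (540 to 780) in 33 members, against 494 CPM in tenocyte and synovial, 19.9 CPM in osteoblast and 22.5 CPM in reticular nuclei. Angptl2, a secreted angiopoietin-like protein, was at 214 CPM (152 to 292) against 202, 10.2 and 22.5 CPM. Fgf1 had no UMI in members, and the marrow growth factor Fgf7 had 1 UMI there and was at 173 CPM in reticular nuclei.

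Of 27 genes of the WNT pathway, 8 were higher and 8 lower. Ror2, a receptor for WNT5A, was at 175 CPM (120 to 247) in 21 members against 76.6, 19.1 and 64.0 CPM, and Wnt5b was at 186 CPM (129 to 260) in 20 members against 20.9, 71.7 and 34.7 CPM. Dkk3, a secreted relative of WNT inhibitors, was at 132 CPM (84.2 to 196) against 90.5, 6.36 and 20.7 CPM. Dkk1 and Tcf7 had no UMI in members and were at 33.5 and 25.9 CPM in osteoblast nuclei. Of 37 BMP and TGF-beta genes, 5 were higher and 12 lower. Tgfb2 was at 181 CPM (124 to 254) against 139, 12.7 and 43.3 CPM, while Bmp3 had 2 UMIs against 123 CPM in osteoblast nuclei. Chrdl1, a BMP antagonist, had 1 UMI against 173 CPM in reticular nuclei, and Bmper, which modulates BMP, had none. No gene of the hedgehog and parathyroid hormone list passed 2-fold among 6 tested, and Gli1, the hedgehog reporter gene often used for skeletal progenitors, had no UMI in members, where 3 counts would be 16.4 CPM.

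The axon guidance genes were mixed as well, with 6 of 30 higher and 11 lower. The receptor Ephb2 was at 164 CPM (111 to 235) in 18 members against 41.8, 21.2 and 26.8 CPM, although chondrocyte nuclei held it at 257 CPM. Its family's ligand gene Efna5 was at 701 CPM (585 to 834) in 37 members against 348, 59.8 and 300 CPM. Sema3d was at 49.3 CPM (22.5 to 93.6) against 526 CPM in osteoblast nuclei, and Dcc and Nrg3 had 1 UMI each.

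For adhesion, junction and contractile genes, 8 of 28 were higher and 3 lower. Ncam1 was at 471 CPM (377 to 582) in 31 members against 174, 94.5 and 202 CPM. Contractile genes were carried by few members. Acta2 had 21 UMIs in 6 members, 11 of them in 1 (115 CPM, 71.2 to 176), against 125, 17.8 and 7.92 CPM, and mural nuclei held it at 828 CPM. Tagln had 18 UMIs in 7 members (98.6 CPM, 58.4 to 156) against 27.8, 8.06 and 6.70 CPM, and 406 CPM in mural nuclei. The mural marker Rgs5 had 27 UMIs in 8 members, 11 of them in 1, for 148 CPM (97.5 to 215) beside 143 CPM in free RNA and 4329 CPM in mural nuclei. The mural list summed to 433 CPM (343 to 539) in members, and its defining genes Myh11 and Mcam had 2 and 0 UMIs. Without the nuclei that lacked 5 member neighbours, the log2 ratio of Rgs5 to the 3 classes went from 1.73 to -0.60. The part of mural RNA in the contractile genes was not tested.

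Of 37 limb and mesenchymal transcription factors, 5 were higher and 5 lower. The calcium-regulated factor Nfatc2 was at 175 CPM (120 to 247) against 160, 26.7 and 24.98 CPM, and Mecom was at 54.8 CPM (26.3 to 101) against 76.6, 2.12 and 3.66 CPM. Creb5, a factor of articular surface cells, was at 148 CPM (97.5 to 215) against 97.4, 12.7 and 20.1 CPM. Runx2, which osteoblast formation needs, was at 482 CPM (387 to 594) against 696, 734 and 810 CPM. Prrx1 itself was at 186 CPM (129 to 260) against 411, 147 and 247 CPM. The reporter transcript was at 329 CPM (251 to 423), seen in 24 members, beside 494, 472 and 255 CPM in the 3 classes, and above blood nuclei (56.1 CPM) and free RNA (55.4 CPM).

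The 15 genes outside all lists with the highest ratio to the 3 classes were all at least 2-fold higher than in osteoblast and in reticular nuclei. Against tenocyte and synovial nuclei, Tenm3, Itm2a, Syne1 and Aebp1 had log2 ratios of -1.66, -1.28, -0.87 and -0.22. Dlg2, a synaptic scaffold protein, was at 323 CPM (246 to 417) in 27 members against 62.6, 13.6 and 16.5 CPM. Edil3, a matrix protein that binds integrins, was at 416 CPM (328 to 521) against 251, 6.78 and 35.3 CPM. Myo16, an unconventional myosin, was at 153 CPM (102 to 222) in 17 members against 3.82 CPM in osteoblast and 20.7 CPM in reticular nuclei. It had no UMI in tenocyte and synovial nuclei, where 3 counts would be 20.9 CPM. Pdzrn4 was at 3199 CPM (2945 to 3469) in 37 members against 710, 39.9 and 1530 CPM, so reticular nuclei held it as well. Sncaip was at 132 CPM (84.2 to 196) in 12 members against 34.8, 2.97 and 15.8 CPM. Aebp1, which takes part in collagen assembly, was at 263 CPM (194 to 349) against 306, 13.6 and 20.7 CPM. Tnfaip6, a hyaluronan-binding protein, was at 285 CPM (213 to 374) against 132, 15.3 and 116 CPM. The other 8 of these 15 were Chn2, Phlpp1, Syne1, Htra3, Cpxm1, Cnn3, Tenm3 and Itm2a, whose log2 ratios to the 3 classes lay between 2.03 and 2.45. In ATAC, which played no part in their choice, all 15 genes had a log2 ratio above 0 (0.24 to 1.41, median 0.81), and 4 reached 1. Of 21282 genes, 11680 were above 0, but these were picked by ATAC counts without regard to RNA. The 15 had to be well expressed in members, so the sets are unlike and the comparison is a description. Of the 4 collagens of highest RNA ratio, Col3a1 had an accessibility log2 ratio of 1.96, with 0.451% of genes higher, and Col12a1 one of 0.13.

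The name was checked against genes known from periosteum and skeletal progenitors that the rule did not use. Of 14 such genes tested, 3 were higher than in the 3 classes summed (Fgfr3, Gas1 and Thy1) and 3 lower (Pdgfra, Nt5e and Eng). Over all genes tested against the 3 classes, 10.1% were higher and 19.9% lower. Against reticular nuclei, 0 of 12 were higher and 5 lower (5.6% and 27.6% of all genes). Against tenocyte and synovial nuclei 2 of 7 were higher and 2 lower (6.38% and 14.6% of all genes). Against osteoblast nuclei 5 of 12 were higher and 2 lower (17.8% and 13.6% of all genes). With so few genes, these counts are a description. Fgfr3 was at 93.1 CPM (54.2 to 149) in 13 members, against 41.8, 15.7 and 78.0 CPM, and 240 CPM in chondrocyte nuclei. Gas1 was at 197 CPM (138 to 273) against 404, 29.7 and 154 CPM, with 17 of its 36 UMIs in 1 member. Thy1 rested on 5 UMIs in 4 members. Cathepsin K (Ctsk), used to mark periosteal stem cells, was at 82.2 CPM (46.0 to 136) against 62.6, 42.8 and 56.7 CPM, below the 118 CPM of free RNA. Pdgfra was at 49.3 CPM (22.5 to 93.6) against 41.8, 129 and 163 CPM. Gli1, Eng and Axin2 had no UMI, Ly6a had 2 and Cd34 had 1. These markers thus gave the name little support beyond the rule genes, and "periosteal-type" is used for nuclei that pass the rule, with no claim on the layer or place they came from.

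Genes that define the neighbouring cell types were low against the class that each defines, and not against every class. The 3 classes summed hold the nuclei picked by some of these genes. Bglap, Phex and Dmp1 helped to set the osteoblast class, and Lepr, Cxcl12 and Ebf3 the reticular class. Their low level against that class was partly fixed by this choice and is a description. Of 26 osteoblast and osteocyte genes tested against the 3 classes, 10 were lower and 2 higher. Against tenocyte and synovial nuclei 6 of 19 were higher and 1 lower, and against reticular nuclei 5 of 25 were higher and 5 lower. Bglap was at 542 CPM (441 to 660) against 11435 CPM in osteoblast nuclei, and under the 993 CPM of free RNA. Phex, which osteocytes use in phosphate control, was at 38.3 CPM (15.4 to 79.0) against 605 CPM, and Dmp1 at 87.6 CPM (50.1 to 142) against 1153 CPM. Alkaline phosphatase (Alpl), which is needed for mineralization, was 1 of the 2 that were higher. It was at 422 CPM (333 to 527) in 28 members, against 104 CPM in tenocyte and synovial, 213 CPM in osteoblast and 153 CPM in reticular nuclei. The other was the homeobox gene Dlx6. Splitting members by a UMI of Runx2, Sp7, Alpl or Ibsp left 6 without any, which held Postn at 1980 CPM (1305 to 2881) beside 3072 CPM (2814 to 3348) in the other 51, with median depths of 1531 and 2673 UMIs.

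Of 18 reticular and niche genes none was higher and 15 were lower than in the 3 classes summed, with a median log2 ratio of -2.27, and 17 were lower than in reticular nuclei. Against osteoblast nuclei, in contrast, 10 of 15 were higher and none lower (median 1.44), and against tenocyte and synovial nuclei 3 of 8 were higher and 2 lower. Lepr was at 54.8 CPM (26.3 to 101) in members and 1199 CPM in reticular nuclei, Cxcl12 at 153 CPM (102 to 222) and 1959 CPM, and Ebf3 at 49.3 CPM (22.5 to 93.6) and 1267 CPM. Of 12 tendon transcription factors and joint surface genes, 2 were higher and 6 lower. The tendon membrane gene Tnmd and the joint lubricant Prg4 had no UMI in members, and were at 237 and 195 CPM in tenocyte and synovial nuclei, where Tnmd was part of the rule. Scx, the tendon factor, had 2 UMIs (10.9 CPM, 1.33 to 39.6) against 48.7 CPM. Fmod was at 252 CPM (185 to 336) and Fndc1 at 230 CPM (166 to 311) in members in spite of the limit, against 1580 and 599 CPM.

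Of 15 chondrocyte genes, 3 were higher and 1 lower. Acan was at 373 CPM (289 to 472) and Col2a1 at 2131 CPM (1924 to 2353), below free RNA (529 and 4614 CPM). Chondrocyte nuclei were far higher (5246 and 32531 CPM), and Acan was among the genes that set that class. Of 14 genes of fibroblasts in many tissues, 4 were higher and 4 lower, and Pdpn had no UMI. Of 11 cycling genes 3 were lower and none higher than in the 3 classes, while 2 of 4 were higher and none lower than in osteoblast nuclei. Mki67 had 1 UMI in members and Aspm none. Blood genes summed to 225 CPM (161 to 305) against 680 CPM in free RNA, with Ptprc, Ikzf1, Csf1r and Bank1 at 0 UMIs. Osteoclast and endothelial genes were at 76.7 CPM each (41.9 to 129) and skeletal muscle genes at 5.48 CPM. Glial and adipocyte genes had no UMI. Of the members, 2 also passed the reticular rule, 2 the mural rule and 1 the blood rule.

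Peaks were ranked by the ratio of members to the 3 classes among 30561 peaks with at least 20 counts in members. The top 200 had log2 ratios of 4.22 to 7.99, which are a description because the members chose them. The ranking did not use the other classes, and 11 of the 200 were at least as open in another class, 10 of them in chondrocyte nuclei and 2 in tenocyte and synovial nuclei. Of the 200, 134 lay in no protein-coding gene, 57 were intronic and 9 touched an exon. Only 1 lay within 1 kb of a protein-coding start and 138 were over 50 kb from any, whereas 65.3% of all peaks with the same minimum were over 1 kb away. The highest was on chromosome 18, at 30.5 ATAC CPM in members (82 counts in 20 members) against 1.02, 0.0777 and 0.0654 ATAC CPM in tenocyte and synovial, osteoblast and reticular nuclei. The second, at chr8:101603534-101604564, had 42 counts in 11 members (15.6 ATAC CPM, 11.3 to 21.2) and 0, 0.155 and 0.0654 ATAC CPM in the 3 classes. The nearest start was that of Cdh11, a cadherin of mesenchymal cells, 1181593 bases away. The third, at chr17:74121756-74122591, had 25 counts in 6 members (9.31 ATAC CPM, 6.03 to 13.8) against 0, 0 and 0.131 ATAC CPM. The peak downstream of the start of Lum had 26 counts in 9 members and none in tenocyte and synovial nuclei, and the intronic Col3a1 peak had 25 counts in 10 members (9.31 ATAC CPM) against 3.05, 0.155 and 0.262 ATAC CPM.

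Summed over the 200 peaks, members had 2577 ATAC CPM, tenocyte and synovial nuclei 621, chondrocyte nuclei 513, mural nuclei 209, osteoblast nuclei 110 and reticular nuclei 58.1. The 35 members with at least 5 member neighbours had 3555 ATAC CPM (3467 to 3644) and the 15 with none had 494 (440 to 553), so the peaks chiefly describe the 35. Peaks and subsets were both chosen from the same ATAC counts. The difference between the subsets was thus partly fixed by these choices and is a description. Tnc, Col12a1, Tab2 and Thap1 were each the nearest gene to 3 of the peaks, and 9 further genes, Edil3 and Bnc2 among them, to 2. Of 119 nearest genes that were tested in RNA, 64.7% had a ratio above 1 and 26.9% were at least 2-fold higher, beside 46.5% and 10.1% of all genes tested. By the nearest start, no peak of the 200 belonged to a rule marker, but 1 overlapped an exon of Lrrc15 (15.3 ATAC CPM, 41 counts in 16 members, against 2.03, 1.32 and 0.229 ATAC CPM) and 1 lay in an intron of the tendon rule gene Fndc1 (19.0 ATAC CPM in members and 14.2 ATAC CPM in tenocyte and synovial nuclei).

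Motifs were searched in the central 300 bases of each peak on both strands. The RUNX motif TGTGGT was in 52.0% of the 200 peaks (exact 95% interval 44.8 to 59.1%), against 26.6% of all 30556 peaks searched and 35.6% of the 19957 that lay over 1 kb from a start. The AP-1 motif TGANTCA was in 38.0% (31.3 to 45.1%), against 17.7% and 25.1%. The homeobox motif TAATTA was in 14.5% (9.93 to 20.2%) against 5.53% and 7.98%, and the E-box CATATG, which TWIST proteins bind, in 8.0% (4.64 to 12.7%) against 2.84% and 3.98%. The TEAD motif GGAATG (21.0% against 20.5% of distal peaks), the SOX motif CATTGT (11.5% against 12.3%), the E-box CAGCTG (16.0% against 21.1%) and the SMAD motif GTCTAG (8.0% against 7.87%) had shares in distal peaks that lay within the interval of the 200. The EBF and CREB motifs were in 1.0% each, and the NFI palindrome in none of the 200 (up to 1.83%). The 200 peaks were poorer in G and C (median 41.8% against 50.7% in distal and 55.7% in all peaks), and its part in these shares was not tested. A match is only a match of letters and not evidence of binding.

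**Figure D5:**
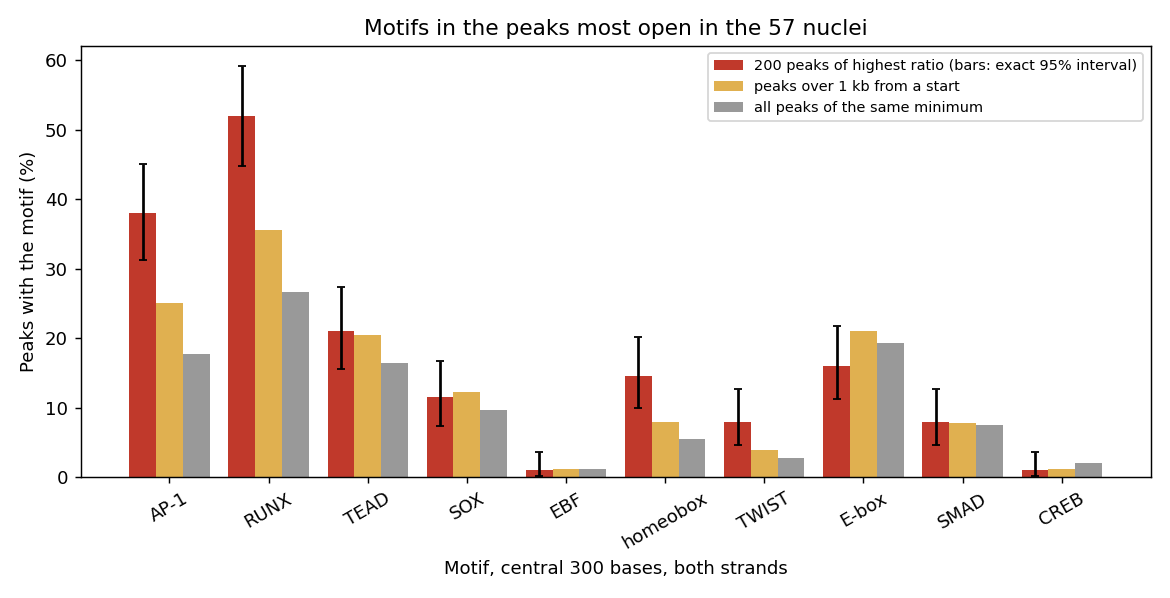
Share of peaks in percent with each motif in the central 300 bases for the 200 peaks of highest ratio (red, with exact 95% intervals), for peaks over 1 kb from a protein-coding start (yellow) and for all peaks with at least 20 counts in members (grey). RUNX (52.0%), AP-1 (38.0%), homeobox (14.5%) and TWIST (8.0%) motifs lie above both backgrounds with their intervals.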

How the data were processed

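The authors aligned the multiome reads to mm10 and counted them per barcode; the header of the deposited matrix names Cell Ranger ARC 2.0.0, and the submitters' processing notes name Cell Ranger. The deposited values are raw counts: UMIs of 32293 genes, and ATAC counts in 203545 peaks, for 728634 barcodes of 1 RNA and 1 ATAC library that share barcodes. The separate list of peak positions was not used, since it carries no counts.

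Barcodes were kept at 500 or more non-mitochondrial UMIs and 1000 or more ATAC counts. No limit was set on mitochondrial UMIs and no doublets were removed. Removing the 179 barcodes with the highest Scrublet scores was an alternative, and took away 1 member. Counts were summed per class and scaled to CPM of non-mitochondrial UMIs or of ATAC counts. Log2 ratios used a pseudocount of 0.5 counts. Poisson and Clopper-Pearson intervals are exact at 95%, and a count of 0 was read against a floor of 3 counts. No p-values were computed, because each group is 1 library. For ATAC neighbours, counts were made binary, weighted by TF-IDF and decomposed into 30 components. Component 1 followed depth (r = 0.97 over barcodes) and was left out. Promoter and peak sequences were read from GRCm38, where no peak ran past a chromosome end.

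The members, the gene lists and the tests were chosen with earlier results of these data known. The text names the 12 genes of the rule, up to 4 genes a list with the largest absolute log2 ratio, the 15 genes outside the lists with the highest ratio, genes the study used as markers, the 4 highest and 4 lowest collagens, the neighbours of Aspn and the 3 highest peaks. Genes named beyond these (Tnc, Dcn, Mmp2, Mmp14, Wnt5b, Efna5, Ncam1, Runx2, Prrx1, Alpl, Dlx6, Scx, Ctsk, Thy1, Axin2, Cd34, Gli1, Myh11, Mcam, the genes higher or lower than each class, and the genes near peaks) and the peaks at Lum, Col3a1, Postn and Tnn were picked after their values were seen. Of the genes in the lists, 2 are not in the table. Only the 2-fold calls were tested on simulated counts, in genes with many expected UMIs in members and not in genes near the minimum. The class rules, ATAC neighbours, peak ranks and motifs were not simulated. Tools were Python 3.11.15, numpy 2.4.6, scipy 1.17.1, pandas 2.3.3, scikit-learn 1.9.0, scanpy 1.11.5 and matplotlib 3.10.9.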

Additional observations from a re-analysis of the deposited data

How the results depend on the processing

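The number of nuclei was 57, and it depended on the limits: 95 at a marker share of 0.1%, 21 at 0.4%, 15 without Postn, 31 without Tnn, and 28 or 10 with at most 20% or 10% mitochondrial UMIs. The log2 ratio of accessibility of the 5 markers was 1.05 and stayed above 0 in every setting, at 0.78 and 1.30 for the 0.1% and 0.4% limits, 1.37 without Postn, 1.21 without Tnn, 0.87 at 20% mitochondrial UMIs and 1.25 in the 35 members with at least 5 member neighbours, a setting added after the data were seen.

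The 137 genes higher than in tenocyte and synovial nuclei became 405 at 0.1%, 75 at 0.4%, 219 by the mean over nuclei, 2734 with no minimum on UMIs, 45 at 50 UMIs, 25 after thinning and 85 in the 35 members. The 314 lower genes became 132 at 10% mitochondrial UMIs, 3729 with no minimum, 78 at 50 UMIs and 25 after thinning. The 1395 genes higher than in osteoblast nuclei became 6606 with no minimum, 626 at 50 UMIs and 141 after thinning, and the 1064 lower became 634 at 0.1%, 501 at 10% mitochondrial UMIs, 613 at 50 UMIs, 158 after thinning and 1760 in the 35 members. The 460 genes higher than in reticular nuclei became 743 at 0.4%, 888 without Postn, 794 at 10% mitochondrial UMIs, 757 with Gm42418, Malat1 and Lars2 left out of the CPM, 4279 with no minimum, 187 at 50 UMIs and 297 after thinning. The 2270 lower became 1385 at 50 UMIs and 858 after thinning. A stricter minimum and thinning leave fewer genes tested, and for the other settings the cause was not tested.

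Against the 3 classes summed, the log2 ratio of Sfrp4 (1.43) turned to -0.82 at 0.4%, -0.93 with Sfrp4 left out of the rule, -0.0078 after thinning and -0.53 in the 35 members. Rgs5 (1.73) turned to -0.48 at 0.4%, -0.64 without Aspn and -0.60 in the 35 members. Omd (1.52) turned to -0.23 without Postn and -0.28 without Tnn. After thinning Prelp (-2.51) was at 0.24 and Bmp3 (-2.45) at 0.81. The median of the tendon and joint list (-1.002) turned to 0.12 without Postn and 0.40 with no limit on tendon genes. The cause was not tested. Over the settings, 2112 values of 120 named genes kept their size within counting error, 327 moved and 11 were counted as reversed. A reversal was a change of sign in a gene whose main ratio was at least 2-fold, with an interval that excluded no difference. Other changes of sign were counted among the values that moved or kept their size. After thinning, 70 genes could be recomputed, of which 34 moved and 3 were reversed. The 2112 include the settings of no minimum and of 50 UMIs. There the ratios of the 120 genes could not change, because that minimum acts on calls only. The share of members among ATAC neighbours was 27.1 to 35.7% over 5 settings, with 12 to 18 members at 0. No paired analysis was possible because there was 1 library of each kind. Depth limits all values near 16.4 CPM, which is 3 UMIs in members.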
